A study of Mus musculus with 8 samples.

Results

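The mouse array used here carries 15617 probes on the autosomes that are named by a genome interval (build mm9) in place of a transcript. An interval probe was kept in a muscle when its Cy5 or its Cy3 signal was well above background on all 4 arrays of that muscle. The scanner software set these marks, so the members were selected on measured signal. Either channel sufficed, so a difference between groups could itself decide whether a probe was kept. In gastrocnemius 3375 of 15617 probes were kept and in tibialis anterior (TA) 3349, with 3132 kept in both muscles and 3592 in either, out of 55681 probes on the whole array. The interval probes carry 4432 interval names, which end in F or R, read here as the strand. A further 577 interval probes on the sex chromosomes were left out. The files hold neither probe sequences nor an mm9 annotation, so whether an interval lies between genes, and whether its RNA is noncoding, was not looked up, and the members are called interval probes below.

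The study compared skeletal muscle of mice that lack a working copy of Eif6 in every cell (Eif6+/-) with that of wild-type (WT) littermates. All mice were male C57BL6 mice between 8 and 16 weeks old. Each of 8 arrays held RNA of 1 Eif6+/- mouse labelled with Cy5 and of 1 age-matched WT mouse labelled with Cy3, 4 arrays for gastrocnemius and 4 for TA, with the mice paired at random. The dyes were not swapped and gastrocnemius and TA arrays sat in separate rows of 1 slide, so genotype cannot be told apart from dye within a muscle, nor muscle from slide row.

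Eif6 keeps the large ribosomal subunit from joining the small subunit too early and also acts in the assembly of the large subunit in the nucleolus. Much of the genome outside annotated genes is transcribed, and long intergenic RNAs are as a rule less abundant and more restricted to certain tissues than messenger RNAs. Many short-lived nuclear transcripts are trimmed or degraded by the nuclear exosome, while the Integrator complex ends the transcription of many noncoding RNAs and paraspeckle proteins bind the long noncoding RNA Neat1.

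The labels were checked on marker genes. The log2 ratio of the Eif6 probe was -1.02 ± 0.11 in gastrocnemius (SD, n = 4, adjusted p = 0.0239) and -0.999 ± 0.17 in TA (SD, n = 4, adjusted p = 0.0108), below 0 on all 8 arrays. All 7 listed skeletal muscle genes were kept in both muscles. None of the 3 liver genes was kept in either muscle. Of 3 brain genes the synaptic Snap25 and Syp were kept and the astrocyte gene Gfap was not.

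Among interval probes detection was the exception. The kept share was 21.6% in gastrocnemius and 21.4% in TA, against 59.2% and 57.8% of 27752 probes named by a RefSeq transcript and 29.9% and 30.0% of the 1216 of these that name a noncoding transcript. In gastrocnemius 9922 interval probes were marked on no array, 460 on 3 arrays with a median log2 level of 6.35, and the 3375 kept had a median of 6.90. In TA the 455 probes marked on 3 arrays had a median log2 level of 6.37 and the 3349 kept a median of 6.95. Just outside the rule the upper quartile was 6.38 in gastrocnemius, and the lower quartile of the kept probes was 6.57. The median of RefSeq-named probes kept in gastrocnemius was 8.29.

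The Cy5 channel brought in more members than the Cy3 channel. In gastrocnemius 2368 of the kept probes (70.2%) were well above background in both channels on all 4 arrays, 119 in Cy5 on all 4 and never in Cy3, and 0 the other way round. In TA these counts were 2560 (76.4%), 122 and 1. A member that passed through Cy5 alone had little room to be lower in Eif6+/-, which bears on every count of rises below.

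Detection went with the interval as a whole only in part. Of 4432 interval names 2501 had no probe kept in gastrocnemius, 1513 had some and 418 had all of them, and in TA these counts were 2501, 1521 and 410. At 1042 positions tiled on both strands, both strands gave a kept probe at 312 in gastrocnemius and 322 in TA, F alone at 219 and 216, R alone at 238 and 224, and neither at 273 and 280. The state was the same in both muscles at 947 of the 1042 positions. By chromosome the share kept in gastrocnemius ran from 14.9% on chromosome 9 to 30.4% on chromosome 19, and by interval length from 17.8% of probes of intervals of 62 to 1789 bp to 23.1% of those of 1791 to 10745 bp.

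To ask which interval probes differed between genotypes, the log2 ratio of Eif6+/- over WT was tested in each muscle with limma over all kept probes, and a probe was called at an adjusted p under 0.1. In gastrocnemius 217 of 3375 interval probes (6.43%) were higher in Eif6+/- and 118 (3.50%) lower, where 8.1% and 5.7% of all 23806 kept probes were higher and lower. In TA 173 of 3349 (5.17%) were higher and 192 (5.73%) lower, where the shares of all 23397 kept probes were 7.67% and 7.5%. Interval probes were thus called no more often than the array as a whole. Most calls were small: the median size among called members was 0.35 in gastrocnemius and 0.30 in TA on the log2 scale. The ratio had the same sign on all 4 arrays for 332 of 335 called members in gastrocnemius and 350 of 365 in TA. The call itself favours probes whose arrays share a sign, so this agreement is not separate evidence for the calls.

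These counts rested on few arrays and on the test. Without array 2, 3 or 4 the gastrocnemius count was 200, 0 and 0, where limma still gave 478 and 419 members at an unadjusted p under 0.05 without array 3 and without array 4, and 0 of all 23806 kept probes were called without array 3 (smallest adjusted p = 0.121) or array 4 (0.110), so that none of the gastrocnemius calls given below remained. The ratio of Eif6 itself was -1.06 without array 3 and -1.004 without array 4 (adjusted p = 0.121 and 0.155). Of all 23806 kept gastrocnemius probes 2190 were called without array 2. Without array 1, 2 or 3 the TA count was 12, 79 and 160, beside 113, 898 and 1936 of all 23397 kept probes. The loss of calls was thus not particular to interval probes. SAM at the same false discovery rate called 599 members in gastrocnemius, and its count over all kept probes was not taken. The higher share among calls also moved with the scaling: it was 64.8% in gastrocnemius but 81.6% (350 higher and 79 lower) with the scanner software's own log ratio. In TA it was 47.4%, but 59.2% (206 and 142) with loess alone, 60.2% (192 and 127) with no offset, 61.1% (234 and 149) with the deposited ratios and 68.5% (217 and 100) with the scanner software's log ratio. No direction for the interval probes as a class can therefore be read from TA. In gastrocnemius the share was 55.2% when both channels had to be well above background on all 4 arrays. Among all kept gastrocnemius probes, too, more were higher (1928) than lower (1357). No direction particular to interval probes is therefore read from gastrocnemius either.

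Rises and falls differed in the channels through which they had passed the detection rule. Of 217 higher calls in gastrocnemius 148 were well above background in both channels on all 4 arrays, against 114 of 118 lower calls. In TA the same held for 101 of 173 higher and 175 of 192 lower calls. When the test was run only on probes well above background in both channels, 138 members were higher and 112 lower in gastrocnemius, and 102 higher and 176 lower in TA. A rise in Cy5 can itself carry a probe past the rule in that channel alone, so this split does not tell the brightness of the rises. The median log2 ratio of the members was 0.036 in gastrocnemius, with array medians between 0.0059 and 0.090, beside 0.011 for RefSeq-named probes. In TA it was -0.013, with array medians between -0.076 and 0.024, beside 0.0060.

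Brightness was then matched by 5 bands of equal numbers of kept interval probes. From the dimmest band to the brightest 6.81%, 2.96%, 5.63%, 8.59% and 8.15% of interval probes were higher in gastrocnemius, beside 3.83%, 2.80%, 3.89%, 6.64% and 12.1% of RefSeq-named probes, so only in the brightest band was the share smaller among interval probes. The lower shares were 0.593%, 0.593%, 0.741%, 4.30% and 11.3%, beside 0.273%, 2.04%, 2.58%, 5.08% and 7.95%. In TA 7.61%, 3.28%, 3.14%, 5.22% and 6.57% of interval probes were higher, beside 6.23%, 3.39%, 4.64%, 5.69% and 10.8%, and 1.94%, 3.13%, 3.29%, 5.37% and 14.9% were lower, beside 2.87%, 3.07%, 4.64%, 8.01% and 10.1%. Falls were few in the dimmest band for both kinds of probe. In gastrocnemius only 6.07% of interval and 6.47% of RefSeq-named probes of that band were well above background in both channels on every array. In TA this held for 10.4% of the interval probes of that band. A probe kept through Cy5 alone had little room to be lower, so the rule can itself make falls few there. A rise in Cy5 can likewise carry a dim probe past the rule. Whether dim probes fell less or rose more often can therefore not be read from that band. The brightest gastrocnemius band ran from 8.15 to 16.2 and held 675 interval and 8578 RefSeq-named probes. Brightness was not matched further within it. The shares of calls were taken under 1 scaling, and the split into higher and lower moved with the scaling as given above. Overlapping intervals can share a transcript, so these shares are descriptions and were not tested.

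**Figure D1:**
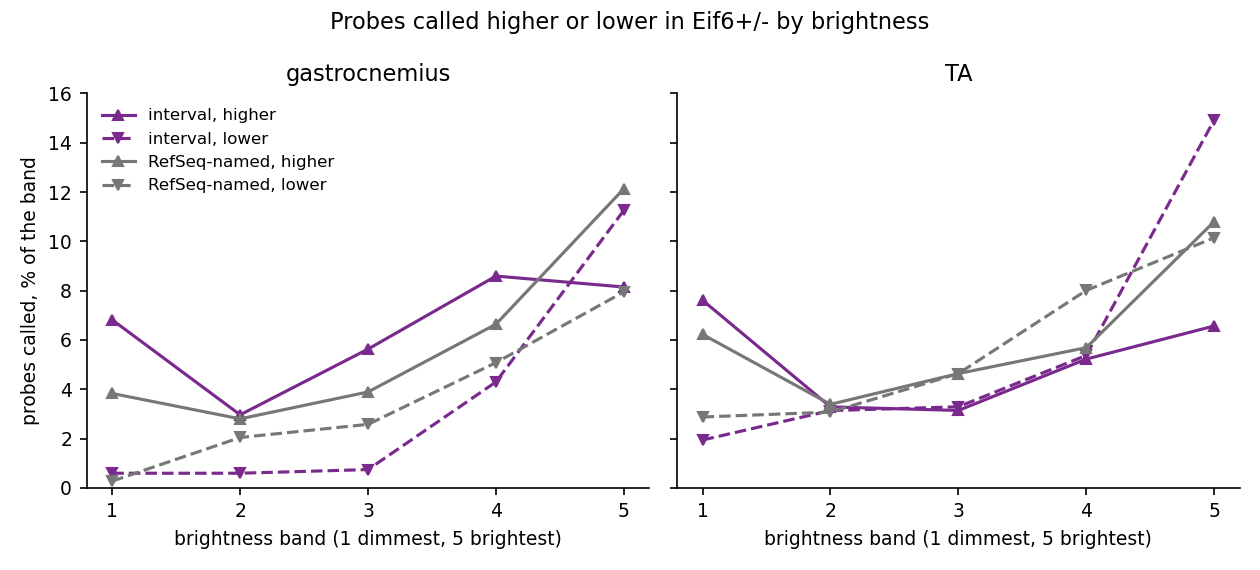
Percent of kept probes called higher (solid lines, upward triangles) or lower (dashed lines, downward triangles) in Eif6+/- at an adjusted p under 0.1, in 5 bands of mean log2 level, for interval probes (purple) and RefSeq-named probes (grey). In the brightest band 11.3% of interval probes were lower in gastrocnemius and 14.9% in TA.

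The called members were spread over the genome. They fell in 275 interval names in gastrocnemius and 308 in TA, of which 41 and 43 held more than 1 called probe. Among 767 intervals with at least 2 kept probes in gastrocnemius all probes had the same sign in 402 (52.4%), and in TA in 400 of 749 (53.4%). Another kept probe of the same interval shared the sign of a called member in 78.6% of cases in gastrocnemius and 72.0% in TA, beside 62.3% and 63.9% for members that were not called. Probes of 1 interval therefore often differed in sign, and each probe is given on its own below. The median range of the ratios within an interval was 0.16 in each muscle, so a difference in sign can be small. Differences between probes of an interval were not tested.

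The muscles were compared next. Of 3132 members kept in both, 128 were called in both, which is 40.5% of the gastrocnemius calls and 37.8% of the TA calls kept in both, beside 40.4% and 37.5% for all probes. Of the 128, 78 were higher in both muscles, 47 lower in both and 3 of opposite sign. The mean ratios of the 3132 members correlated between muscles with r = 0.62 across probes, beside 0.56 for all 22784 probes kept in both; probes share arrays, dyes and intervals and are not independent. The difference between the muscles' ratios itself was called for 0 of 3132 members by limma and for 0% of 22784 probes, with 164 members at an unadjusted p under 0.05 and a smallest adjusted p of 0.635. No other tool was run on this difference.

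**Figure D2:**
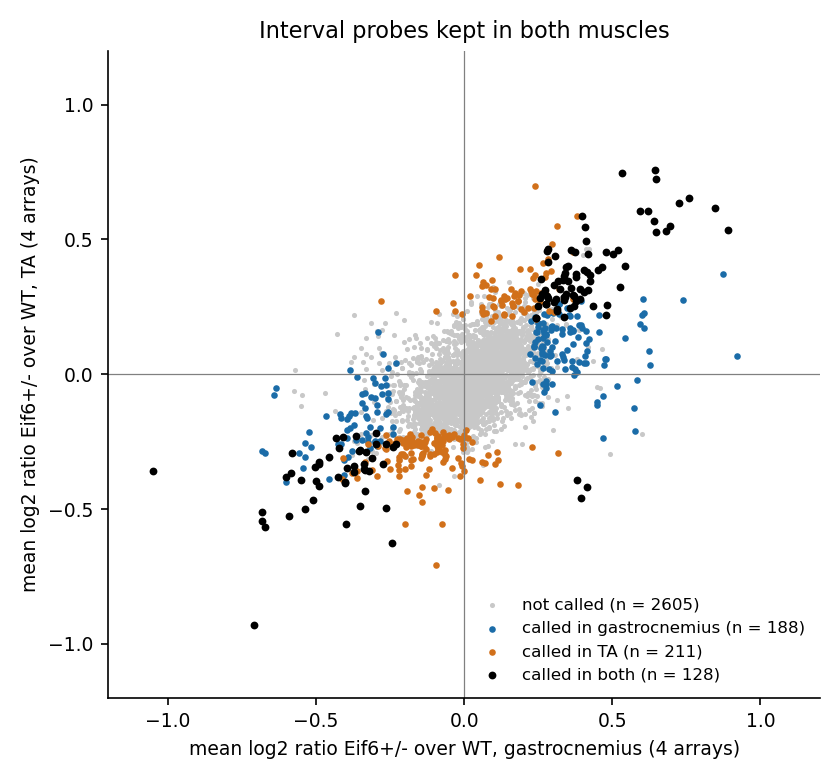
Mean log2 ratio of Eif6+/- over WT in gastrocnemius (horizontal) and TA (vertical) for each of the 3132 interval probes kept in both muscles, coloured by the muscle in which it was called. The 128 members called in both (black) lie in the upper right and lower left apart from 3 at the lower right.

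Several interval probes rose in both muscles with close replicates. Eif6+/- was in Cy5 on all 8 arrays, so agreement between arrays or muscles does not tell genotype apart from dye. The probe of chr18:47313842-47315840 (F) had log2 ratios of 0.87, 0.65, 0.63 and 0.89 on gastrocnemius arrays 1 to 4 and 0.68, 0.61, 0.64 and 0.68 on TA arrays 1 to 4. Its means were 0.76 ± 0.14 (SD, n = 4, adjusted p = 0.0268) and 0.65 ± 0.03 (SD, n = 4, adjusted p = 0.0119), higher on 8 of 8 arrays, and the muscles' values overlapped. A probe of chr5:52461266-52541416 (R) gave 0.92, 0.61, 0.61 and 0.77 in gastrocnemius and 0.54, 0.74, 0.64 and 0.62 in TA, again higher on every array. The other kept probe of that interval averaged -0.07 and -0.10 and was not called, so 1 of the 2 probes measured here rose, out of 6 on an interval of 80151 bp.

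A probe of chr3:90425270-90435820 (R) rose by 0.85 ± 0.13 (SD, n = 4, adjusted p = 0.0249) in gastrocnemius and by 0.62 ± 0.19 (SD, n = 4, adjusted p = 0.0136) in TA. Its TA values were 0.50, 0.91, 0.53 and 0.53, so array 2 stood above the other 3. A probe of chr5:105072936-105074001 (F) gave 0.99, 0.70, 0.90 and 0.99 in gastrocnemius and 0.55, 0.64, 0.50 and 0.44 in TA. Every gastrocnemius value of this probe was above every TA value, with means of 0.89 and 0.53, yet the difference of 0.36 was not called (adjusted p = 0.635). The other kept probes of this interval averaged 0.17 and 0.05 in gastrocnemius and were not called, though the first was with no offset (adjusted p = 0.0975) and with the scanner software's log ratio (0.0884). Each of these 4 members kept its TA call without any single array, at an adjusted p of 0.0988 without array 1.

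Some probes of nested intervals on chromosome 3 rose in both muscles. The intervals chr3:146629425-146649125 (F) and chr3:146645022-146646977 (F) overlap, and of 12 probes on both strands of this stretch 8 were kept and 4 were higher in each muscle. The largest rise was that of a probe of the longer interval, with 0.32, 0.64, 0.84 and 0.77 in gastrocnemius and 0.61, 0.72, 0.69 and 1.01 in TA (means 0.65 and 0.76, adjusted p = 0.0310 and 0.0119). A probe of the shorter interval gave 0.30, 0.53, 0.70 and 0.61 in gastrocnemius and 0.60, 0.58, 0.59 and 1.23 in TA, where array 4 was far above the rest. Its TA call was lost without array 1 (adjusted p = 0.111), and so were those of the other 2 called probes (0.126 and 0.152). In gastrocnemius these 2 averaged 0.41 and 0.28, and the former lost its call with the scanner software's log ratio (0.103) and the latter under 5 settings (0.104 to 0.157) and without array 2 (0.134). The 7 kept F probes ranged from 0.07 to 0.65 in gastrocnemius and from 0.25 to 0.76 in TA, and the 1 kept R probe averaged 0.16 and -0.16 and was not called in either. The overlapping stretch was picked out after its values were seen, because it held many calls.

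For 1 member called higher the WT channel gave no signal to divide by. A probe of chr19:21653968-21671718 (R) was well above background in Cy5 on all 8 arrays and in Cy3 on 0. It was called in both muscles (adjusted p = 0.0409 and 0.0277) but had passed the rule through Cy5 alone, so no rise is read from these calls. No fold is given, because the ratio depends on the offset and on the scaling of a Cy3 signal that was not well above background. Over the alternatives the fitted log2 ratio ran from 0.57 to 3.34 in gastrocnemius and from 0.58 to 3.93 in TA. Its TA call was lost without array 1 (adjusted p = 0.17).

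The largest block of falls lay on chromosome 17. Overlapping intervals with 6 names between chr17:39960567-39992817 hold 20 probes, 10 F and 10 R, all kept in both muscles, and this block too was picked out after its values were seen. In gastrocnemius all 10 F probes and 7 of 10 R probes were called lower and none was higher, with a median of -0.56 on F and -0.36 on R. In TA all 10 F probes and 2 of 10 R probes were called lower, with medians of -0.47 and -0.31. Every one of the 20 probes was below 0 on all 4 gastrocnemius arrays.

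The strongest falls of the block in gastrocnemius were 3 probes of chr17:39983902-39985688 (F). A first probe gave -0.67, -0.59, -0.68 and -0.78 in gastrocnemius, a second -0.62, -0.76, -0.61 and -0.69, and the last -0.51, -0.77, -0.69 and -0.76. In TA the same probes gave -1.09, -0.45, -0.48 and -0.15, then -0.93, -0.64, -0.57 and -0.14, then -0.92, -0.44, -0.53 and -0.15. The gastrocnemius arrays lay close together, while in TA array 1 was the lowest and array 4 near 0 for all 3. Their TA calls (means -0.54, -0.57 and -0.51, adjusted p = 0.0509, 0.0355 and 0.0415) were lost without array 1 (0.182, 0.179 and 0.182) and without array 2 (0.118, 0.107 and 0.107). Those of the 4 F probes of chr17:39960567-39992817 were lost without array 1 (0.181 to 0.314) and array 2 (0.102 to 0.143), and 3 of them without array 3 (0.115 to 0.193) and 2 with no offset (0.114 and 0.135). With the scanner software's log ratio the TA calls of these 7 F probes were lost as well (adjusted p from 0.103 to 0.138).

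On the R strand of the block the TA arrays split. Arrays 1 and 3 ran from -0.75 to -0.43 and from -0.68 to -0.49 over the 10 R probes, while arrays 2 and 4 ran from -0.21 to 0.01 and from -0.09 to 0.17. In gastrocnemius array 3 ran from -0.25 to -0.03 over the R probes. The 5 R probes of chr17:39960567-39992817 lost their gastrocnemius calls with the scanner software's log ratio (adjusted p from 0.101 to 0.145), and 2 of them also without array 1 (0.113 and 0.103) and 1 without array 2 (0.114) and with no offset (0.102). The mouse genome carries an annotated pre-ribosomal RNA gene on chromosome 17, and whether these intervals lie in it was not looked up. The probe of the RefSeq ribosomal RNA Rn28s1 averaged -0.25 ± 0.50 in gastrocnemius (SD, n = 4, adjusted p = 0.395) and -0.18 ± 0.30 in TA (SD, n = 4, adjusted p = 0.309) and was not called.

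**Figure D3:**
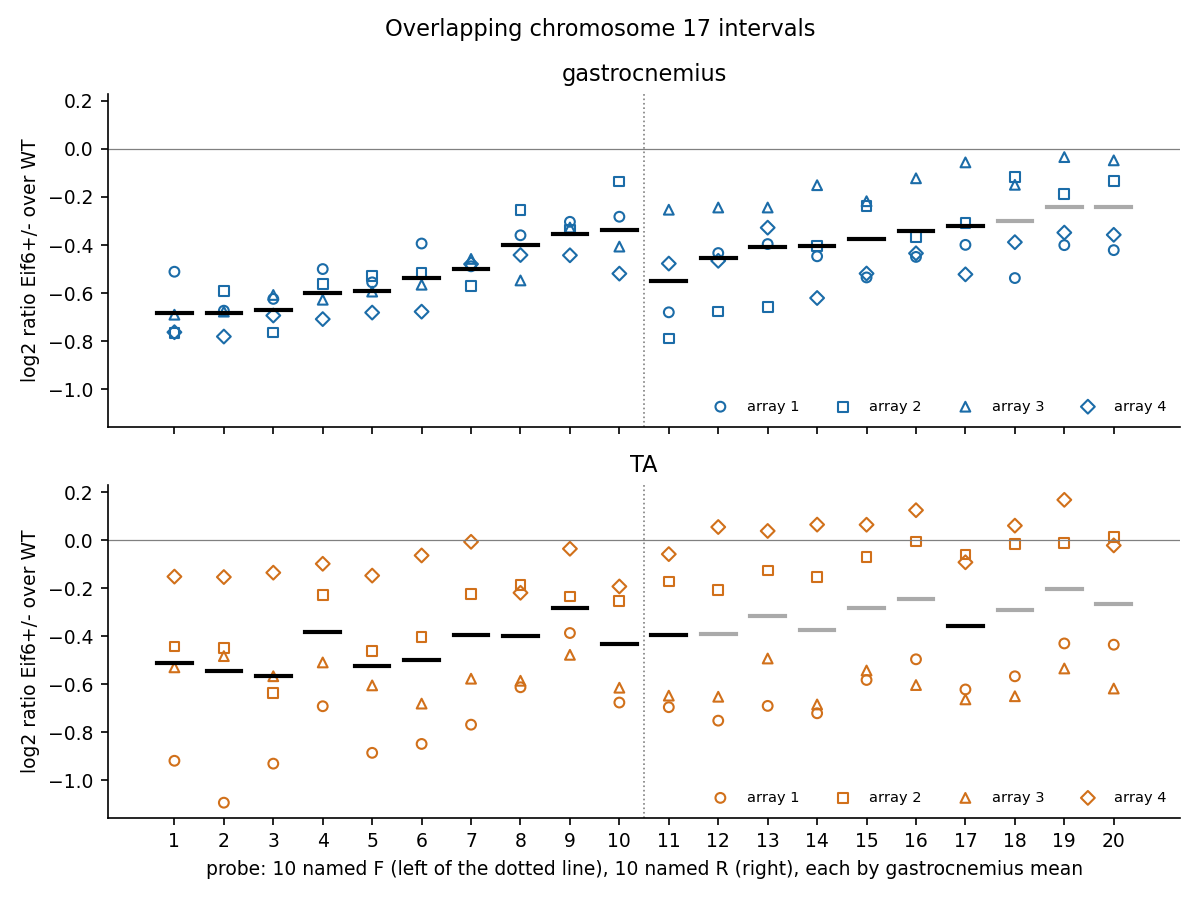
Log2 ratio of Eif6+/- over WT on each of 4 arrays (symbols) for the 20 probes of overlapping chromosome 17 intervals, F probes left and R probes right of the dotted line; bars are means, black where called at an adjusted p under 0.1 and grey where not. All 20 probes are below 0 on every gastrocnemius array, and in TA array 4 is the nearest to 0 for most of them.

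Another fall was shared by the muscles. A probe of chr2:152172745-152184745 (R) gave -0.43, -0.90, -0.76 and -0.75 in gastrocnemius and -1.42, -0.996, -0.88 and -0.43 in TA. It fell by 0.71 (SD 0.20, n = 4, adjusted p = 0.0285) and by 0.93 (SD 0.40, n = 4, adjusted p = 0.0154), lower on 8 of 8 arrays. The other 2 kept probes of the interval averaged -0.24 and -0.35 in gastrocnemius and -0.26 and -0.49 in TA, all below 0. In TA both were called, and both calls were lost without array 1 (adjusted p = 0.271 and 0.179) and the first without array 2 or 3 (0.170 and 0.152) and with no offset (0.113); with the scanner software's log ratio the first was at -0.41. In gastrocnemius only the second was called, which was lost without array 1 (0.106) or 2 (0.144) and with the scanner software's log ratio (0.131).

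Some members were called in gastrocnemius and had other values in TA. All 3 probes of chr6:31078802-31079644 (R) rose in gastrocnemius, by 0.87, 0.60 and 0.59, and the leading probe gave 0.97, 1.02, 0.58 and 0.92. In TA that probe gave 0.75, 0.31, 0.85 and -0.43, with a mean of 0.37 that was not called, so only array 4 went the other way. A probe of chr7:119735208-119822808 (R) gave 1.33, 0.54, 0.90 and 0.92 in gastrocnemius, a mean of 0.92 (SD 0.32, n = 4, adjusted p = 0.0285). In TA it gave -0.14, 0.77, -0.17 and -0.18, where array 2 stood alone above 0, and the difference of 0.85 between muscles was not called (adjusted p = 0.635). This interval held 5 kept probes, and in gastrocnemius 2 more rose (0.58 and 0.37, the latter 0.94 with the scanner software's log ratio) while 1 fell (-0.30), a call lost without array 2 (adjusted p = 0.161), with no offset (0.135) and with the scanner software's log ratio (0.2003).

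Falls in gastrocnemius were led by chr15:77164450-77201325 (F). Its leading probe gave -1.41, -0.60, -1.49 and -0.69, a mean of -1.05 (SD 0.47, n = 4, adjusted p = 0.0310), and the other kept probes averaged -0.63 (called), -0.34 (called) and -0.23. The call at -0.63 was lost without array 1 (0.1002), and that at -0.34 was lost whichever array was left out (0.149 to 0.287), without loess (0.102) and with no filter (0.118). With the scanner software's log ratio these 2 probes were at -1.07 and -0.73. In TA the leading probe gave -0.56, -0.46, 0.13 and -0.55, with array 3 apart from the rest and a call (mean -0.36, adjusted p = 0.0970) that was lost without array 1 (0.341), 2 (0.233) or 4 (0.199) and under 4 scalings (0.137 to 0.216). A probe of chr5:96591892-96606467 (F) gave -0.32, -0.75, -1.05 and -0.61 in gastrocnemius, a mean of -0.68 (SD 0.31, n = 4, adjusted p = 0.0353), and in TA -0.48, -0.55, 0.06 and -0.16, which was not called. Of its other 2 kept probes 1 was called in gastrocnemius (-0.47, adjusted p = 0.0782), a call lost without array 2 (0.166), with no offset (0.102) and with the scanner software's log ratio (0.117), and with no filter at the threshold itself (0.10001). The muscles' values overlapped for the first probe given of chr5:96591892-96606467 (F). For the leading probe of chr15:77164450-77201325 (F) every gastrocnemius value lay below every TA value.

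Other members were called in TA with values nearer 0 in gastrocnemius. On chr2:143963320-143984245 (F) 3 of 4 kept probes fell in TA, by 0.71, 0.62 and 0.56, and the leading one gave -0.84, -0.69, -0.85 and -0.46. In gastrocnemius the same 3 averaged -0.10, -0.24 and -0.07, where the second was called (adjusted p = 0.0836) but lost without array 1, 2, 3 or 4 (0.149, 0.158, 0.193 and 0.261) and under 3 scalings (0.101 to 0.173). The other kept probe was above 0 in both muscles (0.20 and 0.03) and was called in gastrocnemius with no offset (0.0834), with the scanner software's log ratio (0.0902) and with no filter (0.0887). Every TA value of the leading probe lay below every gastrocnemius value, and the difference of 0.61 was not called (adjusted p = 0.635). Without array 1 the leading TA call was kept (0.0988) and the other 2 were lost (0.110 and 0.116).

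A probe of chr2:113880070-113887230 (F) rose in TA with 0.49, 0.97, 0.87 and 0.46, a mean of 0.70 (SD 0.26, n = 4, adjusted p = 0.0147). In gastrocnemius it gave -0.95, 1.93, 1.52 and -1.53, the widest spread of any named member (SD 1.73, n = 4). Its other 2 kept probes split the arrays alike there, at -0.53, 1.01, 0.70 and -1.26 and at -0.54, 0.95, 1.06 and -1.29. Arrays 2 and 3 were thus high and arrays 1 and 4 low in gastrocnemius for all 3 probes, and the mean was not called.

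The only members called in opposite directions were 3 probes of chr5:35975265-35982561 (F). A first probe gave 0.47, 0.27, 0.67 and 0.18 in gastrocnemius and -0.47, 0.01, -0.81 and -0.55 in TA. Its means were 0.40 ± 0.22 (SD, n = 4, adjusted p = 0.0615) and -0.46 ± 0.34 (SD, n = 4, adjusted p = 0.0595). The groups did not overlap: array 2 of TA, the highest there, was near 0 and still below every gastrocnemius value. The other 2 averaged 0.42 and 0.38 in gastrocnemius and -0.42 and -0.39 in TA, and the last F probe 0.47 (called) and -0.23 (not called).

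The difference between the muscles' ratios was 0.85, 0.84, 0.77 and 0.70 for the 4 probes and was not called (adjusted p = 0.635 for each). The 4 R probes of the same interval averaged from 0.19 to 0.32 in gastrocnemius, where none was called, and from -0.29 to -0.15 in TA, where 2 were. Calls of the F probes were fragile: in gastrocnemius those of 3 probes were lost with the scanner software's log ratio (adjusted p from 0.116 to 0.135), 1 also with no offset (0.104) and with no filter (0.102), 2 without array 1 (0.108 and 0.146) and 3 without array 2 (0.104 to 0.158), and in TA all 3 were lost without array 1 (0.230 to 0.286), 3 (0.140 to 0.206) or 4 (0.107 to 0.136), with no offset (0.108 to 0.136) or with the scanner software's log ratio (0.132 to 0.168), and 1 with loess alone (0.113) or the deposited ratios (0.110). Set beside the levels, the WT level was higher in TA than in gastrocnemius and the Eif6+/- level lay between. The smaller gap in Eif6+/- restates the difference of the ratios, which was not called, so nothing more is read from it.

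**Figure D4:**
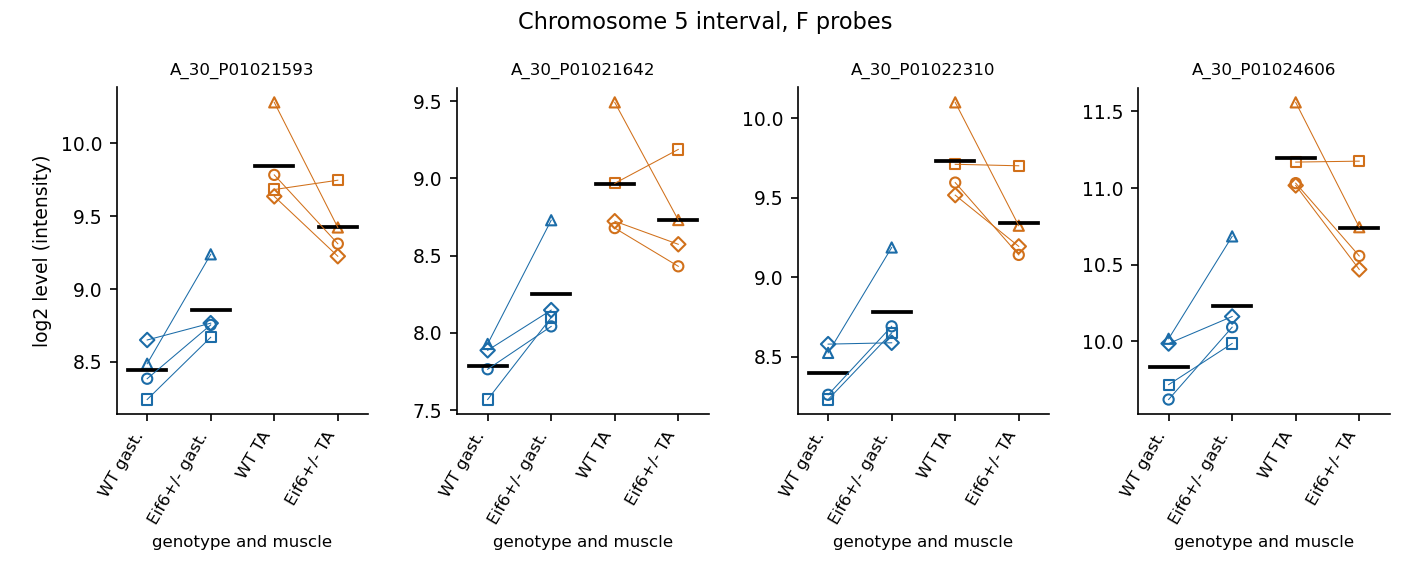
Log2 level of the 4 F probes of the chromosome 5 interval by genotype and muscle, with lines joining the channels of 1 array, 1 symbol per array number and bars at the mean of 4. WT TA arrays all lie above the WT gastrocnemius arrays, and the Eif6+/- values lie between for most arrays.

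Levels between muscles were compared within a dye, where a dye effect of a probe cancels. In WT 93 of 3592 interval probes were higher in gastrocnemius and 321 higher in TA, where 6.93% of 24419 probes were higher and 11.2% lower in gastrocnemius. In Eif6+/- 135 were higher in gastrocnemius and 167 in TA, where these shares were 6.04% and 8.06%. Some members had passed the detection rule in 1 muscle only (243 in gastrocnemius, 217 in TA), and among the 3132 kept in both the counts were 85 and 292 in WT and 128 and 156 in Eif6+/-. The WT count of 414 was 219 without gastrocnemius array 3 and 212, 200 and 230 without TA array 2, 3 or 4. The Eif6+/- count of 302 was 164, 161 and 196 without gastrocnemius array 1, 2 or 4 and 125, 162 and 193 without TA array 1, 2 or 4. With the array number as a block the WT count was 233, and with the scanner software's signal the Eif6+/- count was 531. In both genotypes 120 members were called, which is 29.0% of the WT and 39.7% of the Eif6+/- calls (39.1% and 50.3% for all probes), 42 higher in gastrocnemius, 77 higher in TA and 1 opposite.

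TA was the higher muscle for the interval of the opposite calls. In WT the first F probe of chr5:35975265-35982561 had log2 levels of 9.62, 9.72, 10.02 and 9.99 in gastrocnemius and 11.03, 11.17, 11.56 and 11.02 in TA. The 4 F probes differed by -1.36, -1.41, -1.33 and -1.18 between WT muscles, all called (highest adjusted p = 0.00514), and by -0.51, -0.57, -0.56 and -0.48 in Eif6+/-, where the values of -0.57 and -0.56 were called (adjusted p = 0.0397 and 0.0503). The latter was lost without gastrocnemius array 1, 2 or 4 (0.118, 0.117 and 0.118) and TA array 2 (0.113), while the first was called with the scanner software's signal (0.0484) and without loess (0.0873). No WT array of either muscle overlapped with the other for these probes.

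Other members higher in TA kept that order in both genotypes. A probe of chr8:27925064-27934895 (R) had WT levels of 6.71, 6.90 and 6.80 on gastrocnemius arrays 1, 2 and 4, array 3 being dropped as an outlier spot, and 8.18, 8.44, 7.67 and 8.63 in TA. The difference was -1.43 in WT (adjusted p = 0.00586) and -1.06 in Eif6+/- (adjusted p = 0.0288), and with the scanner software's signal the WT difference was -2.29. In TA this probe was lower in Eif6+/- (-0.38, adjusted p = 0.0529), a call lost without array 1, 2 or 3 (0.106, 0.160 and 0.132) and with the scanner software's log ratio (0.109). A probe of chr16:23543837-23560153 (F) had WT levels of 6.47, 6.90, 6.50 and 6.86 in gastrocnemius and 7.58, 8.10, 7.80 and 8.00 in TA. It differed by -1.19 in WT (adjusted p = 0.00253) and -0.75 in Eif6+/-, and in gastrocnemius it was higher in Eif6+/- by 0.61 (adjusted p = 0.0419). Its WT signal was well above background on only 3 of 4 gastrocnemius arrays, and with the scanner software's values the WT difference was -2.37 and the ratio 1.39, so both sizes depend on the scaling. The WT values of the muscles did not overlap for either probe.

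Gastrocnemius was higher for a smaller set. A probe of chr1:186560855-186563399 (F) had WT levels of 9.25, 9.08, 8.64 and 8.94 in gastrocnemius and 7.76, 8.08, 8.34 and 8.03 in TA, a difference of 0.92 (adjusted p = 0.00779), and 0.67 in Eif6+/- (adjusted p = 0.00166). All 3 kept probes of this interval were called in WT (0.92, 0.64 and 0.70), and in TA all 3 were also higher in Eif6+/- than in WT (0.35, 0.48 and 0.32, or 0.52, 0.77 and 0.55 with the scanner software's log ratio). The TA calls were lost without array 1 (adjusted p = 0.253, 0.125 and 0.187), the first and last also without array 2 (0.131 and 0.120), and the first without array 4 (0.111), with no offset (0.112) and with the scanner software's log ratio (0.115).

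A probe of chr1:93812836-93816128 (F) had WT levels of 9.29, 9.39, 10.97 and 9.77 in gastrocnemius and 8.02, 8.78, 7.66 and 7.96 in TA, the largest called difference with gastrocnemius higher (1.74, adjusted p = 0.0167). Its Eif6+/- levels were 9.46, 8.88, 9.23 and 9.56 in gastrocnemius and 7.80, 7.89, 8.95 and 7.85 in TA, a difference of 1.16 (adjusted p = 0.0236). Array 3 was the highest in WT gastrocnemius and in Eif6+/- TA. The same arrays were the highest for a probe of chr10:94900849-94928059 (R), whose WT difference was 1.06 (adjusted p = 0.0244) and whose Eif6+/- level in TA was 8.92, 9.24, 10.48 and 8.81.

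Probes of chr17:8718223-8949898 (F) and chr3:58496493-58601253 (F) were also higher in gastrocnemius in WT, with WT differences of 0.88 (adjusted p = 0.0898) and 0.86 (adjusted p = 0.0868). The former was lost without gastrocnemius array 1 (0.113) and without TA array 1, 2, 3 or 4 (0.154, 0.156, 0.160 and 0.173). The latter was lost without gastrocnemius array 4 (0.114) and without TA array 1, 2, 3 or 4 (0.136, 0.120, 0.189 and 0.175), and with the array number as a block (0.135). Without gastrocnemius array 3 both stayed called, with differences of 0.51 and 0.52, and with the scanner software's signal they were 1.54 and 1.28. The 6 connective tissue genes (all kept, none called between genotypes) moved with these members: the log2 ratio of their summed levels was 0.06, 0.02, -1.34 and 0.32 in gastrocnemius and 0.25, -0.84, 2.17 and -0.20 in TA. Their part in the result was not tested, and in bulk muscle fewer cells of a type and less RNA per cell cannot be told apart.

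**Figure D5:**
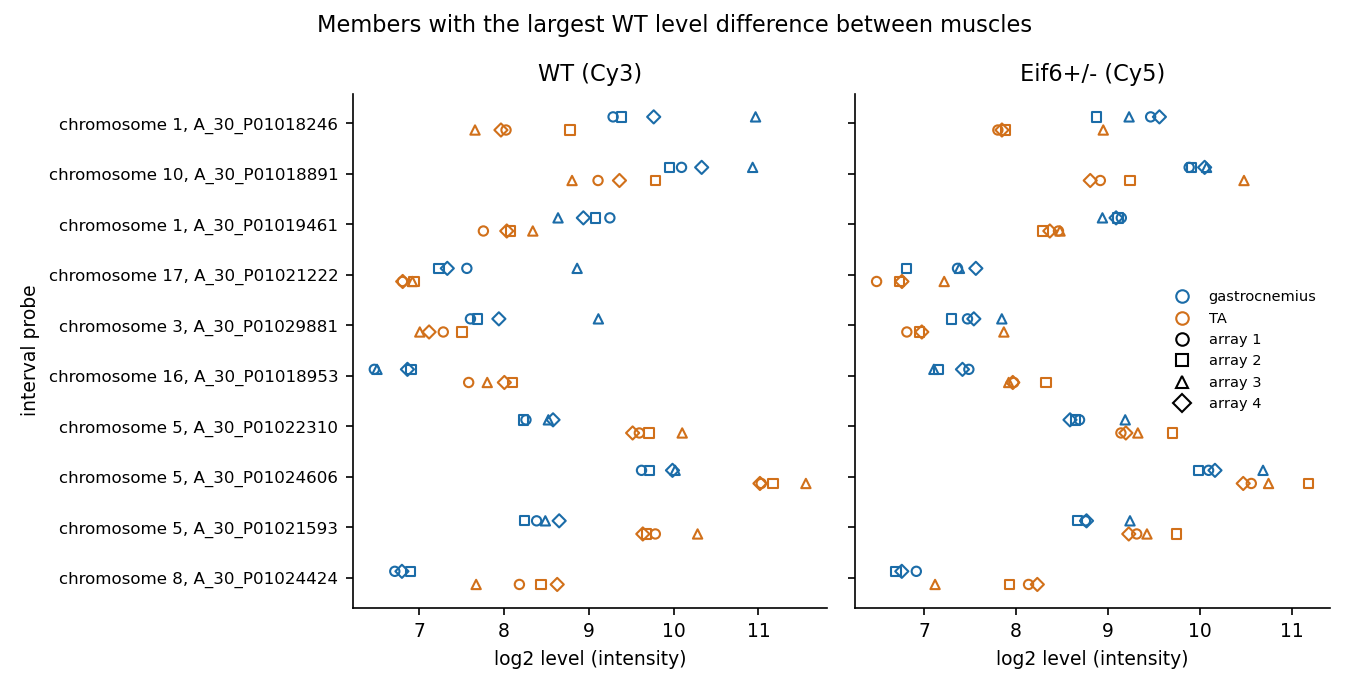
Log2 level on each array of 10 interval probes kept in both muscles, the 5 with the largest called WT level differences in each direction, in WT (left) and Eif6+/- (right), gastrocnemius in blue and TA in orange, 1 symbol per array number. For 4 of the 5 probes higher in gastrocnemius, array 3 is the highest WT gastrocnemius array and the highest Eif6+/- TA array.

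The brightest interval probes fell or were not called. The probe of highest level lay in chr14:78924115-78938125 (F), at a mean log2 level of 16.2 in both muscles, and gave -0.77, -0.12, -0.10 and -0.65 in gastrocnemius (mean -0.41, adjusted p = 0.104, but called under 5 scalings at 0.0777 to 0.0995) and -0.26, -0.38, -0.61 and -0.30 in TA (mean -0.39, adjusted p = 0.0354). A probe of chr6:116092274-116144199 (F) gave -0.78, -0.20, -0.33 and -0.73 in gastrocnemius and -0.69, -0.41, -0.61 and -0.16 in TA (means -0.51 and -0.47, adjusted p = 0.0517 and 0.0352). A probe of chr12:73838608-73862621 (R) averaged -0.43 in gastrocnemius (adjusted p = 0.0355) and -0.26 in TA (adjusted p = 0.143). The named probes of chr17:17481706-17482457 (R) and chr6:83368261-83407280 (F) averaged -0.21 and -0.22 in gastrocnemius and -0.07 and -0.21 in TA and were not called. With loess alone the probes of chr12:73838608-73862621 (R) and chr6:83368261-83407280 (F) were called in TA (adjusted p = 0.0995 and 0.0928), and with no filter the latter was in gastrocnemius (0.0970). Another kept probe of chr6:83368261-83407280 (F) was called in TA (-0.36, adjusted p = 0.0495), a call lost without array 1 (0.221), 2 (0.131) or 3 (0.118) and with the scanner software's log ratio (0.132). Another of chr6:116092274-116144199 (F) was called in both muscles (-0.33 and -0.29, adjusted p = 0.0893 and 0.0723), calls lost whichever array was left out in gastrocnemius (0.141 to 0.266) and without array 1, 2 or 3 in TA (0.257, 0.127 and 0.192), and under 4 and 2 scalings (0.106 to 0.272 and 0.131 to 0.188). All 5 means were below 0 in both muscles, none of the members was saturated on any array, and the TA calls on chromosomes 14 and 6 were lost without array 1 (adjusted p = 0.138 and 0.183), the former also without array 2 (0.106).

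Intervals with kept probes on both strands are given next, and no difference between strands was tested. On chr11:22681800-22707775 the R probe fell by 0.31 in gastrocnemius (adjusted p = 0.0651) and averaged -0.09 in TA, while the F probe fell by 0.30 and 0.26 (adjusted p = 0.0764 and 0.0635), or by 0.48 in each with the scanner software's log ratio. Those F calls were lost whichever array was left out (0.150 to 0.2001 in gastrocnemius, 0.117 to 0.205 in TA), and the R call was lost without array 1 (0.129), 3 (0.218) or 4 (0.185), with no offset (0.125) and with the scanner software's log ratio (0.148). No probe was called in either muscle on chr12:119825125-119850750, chr10:69669025-69686275 or chr7:108209996-108216032, where means ran from -0.24 to 0.29. With loess alone the F probe of chr12:119825125-119850750 was called in TA (adjusted p = 0.0883). The F probes of chr10:69669025-69686275 were lower in gastrocnemius on array 1 than on any other.

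Annotated long noncoding RNAs and genes that process such RNAs were set beside the interval probes. Of 29 listed long noncoding RNAs 20 were on the array and 18 were kept in each muscle. Tug1, a widely expressed long noncoding RNA, was lower in gastrocnemius (-0.33, adjusted p = 0.0647) and none was higher, and in TA 0 were called. Of all kept probes 8.1% were higher and 5.7% lower in gastrocnemius, and 7.67% and 7.5% in TA. The nuclear Malat1 and Neat1 averaged -0.04 and 0.02 in gastrocnemius and -0.18 and 0.00 in TA. Between muscles Mir22hg, the host transcript of a microRNA, was higher in gastrocnemius in WT (0.38, adjusted p = 0.0345) and in Eif6+/- (0.41, adjusted p = 0.0365), Norad was higher there in WT (0.33, adjusted p = 0.0698), and Meg3 and Mirg were lower there in Eif6+/- (-0.54 and -0.40, adjusted p = 0.0941 and 0.0781). Arrays were not left out for these level differences.

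Of 18 nuclear exosome genes and cofactors 17 were kept. Exosc9, a subunit of the exosome ring, was higher in gastrocnemius (0.47 ± 0.19, SD, n = 4, adjusted p = 0.0399) and in TA (0.46 ± 0.08, SD, n = 4, adjusted p = 0.0168). In TA the cofactor Rbm7 was also higher (0.24) and the subunit Exosc4 (-0.26) and the poly(A)-binding Pabpn1 (-0.32) were lower. Of 14 Integrator genes 12 were kept, with Ints10 higher (0.30) and Ints1 lower (-0.26) in gastrocnemius and 0 called in TA. All 9 paraspeckle genes were kept, with Rbm14 higher in both muscles (0.39 and 0.44, adjusted p = 0.0492 and 0.0198) and Nono higher in TA (0.24). The log2 ratio of the summed level was 0.16, 0.41, 0.06 and 0.45 in gastrocnemius and 0.54, 0.10, 0.23 and 0.10 in TA for the exosome list. A sum is weighted to its brightest members, and the median ratio of the kept members was 0.06 in gastrocnemius and 0.00 in TA. For the Integrator list the sum gave -0.04, -0.08, -0.12 and -0.05 in gastrocnemius and -0.19, -0.06, -0.15 and 0.04 in TA, with medians of -0.05 and -0.06. The lists were not tested as wholes, and among all kept probes 8.1% were higher and 5.7% lower in gastrocnemius and 7.67% and 7.5% in TA.

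The calls of these genes rested on single arrays as well. In gastrocnemius those of Tug1, Ints1 and Ints10 were lost without array 2 (adjusted p = 0.136, 0.133 and 0.170), as was that of Rbm14 (0.1001), and none of the list genes was called without array 3 or 4. Leaving arrays out for these genes was chosen after seeing the data. In TA those of Exosc9 and Rbm14 were lost without array 1 (0.113 and 0.124) and that of Pabpn1 without array 1 or 2 (0.186 and 0.155). Those of Rbm7, Exosc4 and Nono were lost whichever array was left out (0.110 to 0.314, 0.101 to 0.271 and 0.103 to 0.219).

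Marker lists of other cells moved in part and are given with the interval results, in which their part was not tested. The 7 slow fibre genes were kept, none called in gastrocnemius and Tnnt1, Tnni1 and Tnnc1 lower in TA (-0.90, -0.80 and -0.41); the log2 ratio of the summed level was 3.22, -1.09, 0.19 and -0.18 in gastrocnemius and 0.01, -0.52, -0.06 and -1.45 in TA. Of the skeletal muscle genes Ckm and Actn3 were lower in gastrocnemius (-0.37 and -0.36), and Myh4 was higher (0.80) and Mb lower (-0.54) in TA. Of 6 fat cell genes 5 were kept (Lep was not), with Adipoq and Cfd lower in gastrocnemius (-0.64 and -0.89) and Plin1 and Cidec higher in TA (0.51 and 0.60). Their summed ratio was -0.49, -0.11, -0.42 and -1.40 in gastrocnemius and 0.01, -0.01, 0.68 and -0.20 in TA.

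Of 4 red blood cell genes 3 were kept in gastrocnemius and 4 in TA, where Hbb-bs, Hba-a1 and Alas2 were lower (-1.30, -0.72 and -0.67) and the summed ratio was -0.73, -1.30, -0.59 and -0.40. Of 5 neutrophil genes 1 and 2 were kept, with S100a9 and Camp lower in TA (-1.61 and -0.32). Of 5 leukocyte genes on the array 3 and 4 were kept, with Cd74 lower in gastrocnemius (-1.10). Of the myelinated nerve genes given here Mbp and Prx were lower in TA (-0.21 and -0.44), as was Pecam1 (-0.32) of 3 endothelial genes. The blood, nerve and slow fibre markers named here as called in TA were thus all lower in Eif6+/-, while the called fat cell markers were higher. Of 4 kept leukocyte genes 0 were called in TA, and the median ratio of the 3 endothelial genes there was -0.055. No general fall of other cell types is read from these lists. Of the marker genes called in TA only Myh4 and Prx kept their calls without array 1 (0.0988), the others given here having an adjusted p from 0.103 (Tnnt1) to 0.325 (Camp). Calls were also lost without array 2 for Mb, Tnnc1, Camp, Mbp and Pecam1 (0.107 to 0.215), without array 3 for Mb, Plin1, Camp and Mbp (0.112 to 0.205), and without array 4 for Plin1, Camp, Mbp and Pecam1 (0.112 to 0.155). In gastrocnemius Ckm and Actn3 lost theirs without array 2 (0.121 and 0.118).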

How the data were processed

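RNA of gastrocnemius and TA was hybridised to 8 Agilent arrays of 2 colours. Per the file headers, spots were read by Feature Extraction 10.5.1.1, which gives median spot and background brightness and processed signals in units of intensity, and the ratio of the channels as log10. The table deposited by the authors holds log2 ratios. It was set against the scanner files: on each array its median lay between -0.0044 and 0.0037, and it correlated at 1.00 across probes with a loess-scaled log2 ratio of Cy5 over Cy3 from uncorrected intensities.

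Here, in R 4.3.3 with limma 3.58.1 and the package data.table (1.17.8), intensities were background-corrected (normexp, offset 50), scaled by loess within arrays and by quantiles between channels. Control and outlier spots were dropped and spots of a probe averaged. Each array held 59305 probe spots, of which 233 to 318 were outliers. A log2 level includes the offset. Ratios were tested against 0 in each muscle, and ratios or levels between muscles, by lmFit and eBayes with Benjamini-Hochberg adjustment over all kept probes and a threshold of 0.1. The number of arrays, 4 a muscle, limits the precision. The steps were tested on simulated data. Figures were drawn with matplotlib 3.10.9 in Python 3.11.15.

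Members named are the 5 largest rises and falls in each muscle with 1 sign on 4 arrays, the 5 brightest, up to 5 called in both muscles by the smaller ratio, the 5 largest called WT level differences in each direction among probes kept in both muscles and 5 intervals with both strands kept; all other kept probes of these intervals are counted. A gene is given by its brightest probe. Lists covered skeletal muscle, slow fibres, fat, red blood cells, neutrophils, leukocytes, connective tissue, nerve, endothelium, liver, brain, long noncoding RNAs, nuclear exosome, Integrator and paraspeckles; Mpp6 was dropped from the exosome list because the mouse gene of that symbol is another protein. Members and lists were chosen with earlier results of these data known. Alternatives covered the scaling, background, filter, threshold, SAM, 1 probe per interval, the pair number as a block and leaving out each array; averaging an interval's probes was added after seeing the data. Probe sequences and neighbouring genes were not used here.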

Additional observations from a re-analysis of the deposited data

Results flagged for a closer look

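Among 111 groups of 4 arrays 9 had a value far from the other 3 (8.11%), where chance flags about 1 in 20 groups. In TA, array 2 stood apart for the log2 ratio of probes of chr7:119735208-119822808 (0.77) and chr3:90425270-90435820 (0.91), array 3 for chr15:77164450-77201325 (0.13) and chr10:94900849-94928059 (1.68), and array 4 for chr3:146645022-146646977 (1.23). In the Eif6+/- level TA array 3 stood apart for chr1:93812836-93816128 (8.95) and chr3:58496493-58601253 (7.87), TA array 2 for chr16:23543837-23560153 (8.33), and gastrocnemius array 3 for a probe of chr5:35975265-35982561 (9.24).

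A probe of chr5:35975265-35982561 (F) was above 0 on every gastrocnemius array and below 0 on every TA array, with a difference of the log2 ratios of 0.77. The limma test of that difference did not call it (adjusted p = 0.635). The probe's values on gastrocnemius array 4 (0.0084) and TA array 2 (-0.0096) were near 0. Of 3125 members 10 had this pattern of signs and 0 had the reverse. On all 8 arrays 218 were above 0 and 140 below. The pattern was not counted over all probes, so it is not read as rare or as particular to interval probes.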

How the results depend on the processing

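Of 653 ratios of called named members under other settings 591 kept their call, 62 lost it and 0 reversed; with an array left out 152 of 328 kept it and 0 reversed. The number of interval probes called in gastrocnemius (335) and TA (365) was 523 and 976 with no filter, 190 and 216 with the brightest probe per interval, 98 and 109 at an adjusted p under 0.05, and 153 and 157 when an interval's probes were averaged, an alternative chosen after seeing the data; fewer units or a stricter threshold lower a count by construction. SAM called 599 in gastrocnemius, and the cause was not tested. Leaving out 1 array gave 0 to 258 in gastrocnemius and 12 to 332 in TA. Of all kept probes 0 to 2968 of 23806 in gastrocnemius and 113 to 3529 of 23397 in TA were then called. The gastrocnemius median ratio was 0.096 with the scanner software's log ratio, and 0.017 to 0.047 (TA -0.026 to 0.0090) without 1 array.

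The share kept was 15.2% and 16.4% when both channels had to pass, 24.6% and 24.4% on 3 of 4 arrays, and 22.04% to 22.8% and 21.6% to 22.6% without 1 array. The WT level count (414) was 232 with 1 probe per interval, 179 at 0.05 and 200 to 392 without 1 array; the Eif6+/- count (302) was 531 with the scanner software's signal, 154 with 1 probe per interval, 141 at 0.05 and 125 to 361 without 1 array. The difference of ratios had 0 calls under every setting run, with 97 to 254 members at an unadjusted p under 0.05 among settings of the same members. Whether the array number pairs the muscles of 1 mouse was checked: same-number arrays correlated across probes at -0.14, 0.02, -0.36 and 0.09 for the ratio, 0.19, 0.02, 0.02 and 0.15 for the Eif6+/- level and -0.38, 0.11, -0.07 and 0.19 for the WT level. The own number gave the highest value for 0 of 4 ratios, for numbers 1 and 4 in the Eif6+/- level and for number 4 in the WT level, so the check did not settle the pairing, and the number was not used in the fit. As a block it gave a WT level count of 233 and an Eif6+/- level count of 336. Signal near background limits the dim members, for which a ratio depends on the offset.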
